A study of Mus musculus with 15 samples.

Results

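Interferon signalling and response genes were examined in microvascular endothelial cells of the mouse brain, heart and liver. The set held 70 of the 19938 genes measured. A gene was a member when its array annotation gave 1 symbol of the Ifit, Ifitm, Ifi, Gbp or Oas families, of the numbered Irf and Stat factors, or of the receptor chains Ifnar1, Ifnar2, Ifngr1 and Ifngr2, or when it was Rsad2, Mx1, Mx2, Bst2 or Usp18. The rule used names only, and for each gene the probe set with the highest mean was kept. By role there were 4 receptor chains, 6 Stat factors, 8 Irf factors, 5 Ifit genes, 7 Ifitm genes, 16 Ifi genes, 8 Gbp genes, 11 Oas genes and 5 single antiviral genes. Isg15 is read by a probe set that also names another gene, and is not analysed here, like 5 other such probe sets.

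Interferons are secreted proteins that put cells into an antiviral state. Type I interferons bind a receptor of the chains Ifnar1 and Ifnar2, and interferon gamma binds one of Ifngr1 and Ifngr2. Janus kinases on these chains phosphorylate Stat factors. Stat factors then enter the nucleus, alone or with Irf9, and switch on the response genes through the interferon-stimulated response element (ISRE) or the gamma-activated site (GAS). Many response genes act directly on viruses or intracellular microbes. Vessels are an early site of contact with blood-borne interferon and microbes, and sinusoidal endothelium of the liver is known as a site of pathogen clearance.

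The cells came from Tie2-GFP mice on an FVB background, aged 8 to 12 weeks, kept on standard chow and given no treatment before death by cervical dislocation. Their transgene carries the Tie2 promoter, that of the endothelial receptor gene Tek, before the sequence of green fluorescent protein (GFP), and GFP+ cells were sorted straight into lysis buffer. There were 5 arrays a tissue, each from a pool of 6 mice for brain, 4 for heart and 2 for liver, with as many males as females. Every digestion took 60 min, but brain received crude collagenase with DNAse I and then trypsin at 37 °C, heart received collagenase I at 37 °C, and liver received dispase at room temperature with a slow spin against hepatocytes and a Percoll gradient. Tissue, enzyme, temperature and pool size cannot be told apart here. The Tie2 promoter is also known to be active in some blood cells, so the sort does not by itself exclude them. The labels do not say whether pools of 1 tissue were prepared apart from each other throughout, so the p-values below measure the spread between these pooled samples. Values are log2 intensities after RMA, a normalization that brings arrays to nearly equal distributions. A level is therefore relative to the other genes on its array, and a difference of 1 is a 2-fold difference in signal. Means are given ± SD over 5 arrays. A gene was called between a pair of tissues when its limma adjusted p was under 0.05.

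All 18 pan-endothelial markers, among them Pecam1, Cdh5 and Tek, read above the median of all gene values (6.07) in every tissue, and their mean per array lay between 10.21 and 10.61. Markers of other cells were present too. The 13 macrophage and Kupffer cell markers averaged 8.00, 6.00, 8.49, 8.17 and 5.65 on liver replicates 1 to 5, against 5.19 to 5.42 in brain and 5.19 to 5.56 in heart. The 12 cardiomyocyte markers averaged 9.80, 8.79, 9.43, 8.17 and 8.15 on heart replicates 1 to 5, and 10 hepatocyte markers averaged 7.37 to 8.24 in liver. Pericyte and smooth muscle markers (10 genes) ran from 6.86 to 8.24 in heart and from 6.28 to 7.80 in brain, with replicate 1 highest in both. Fibroblast and stellate markers (11 genes) spanned 6.18 to 7.12 in heart, again with replicate 1 highest. The lists for microglia (5.29 to 5.47 in brain), lymphoid cells, granulocytes, dendritic cells and neural cells stayed under 6 on every array. In such bulk samples fewer cells of a type and less RNA per cell cannot be told apart.

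Of the 70 members, 40 were called between at least 1 pair of tissues, against 37.8% of all genes. Between brain and heart 20 members were called (background 15.4%), 9 higher in brain and 11 higher in heart. Between brain and liver 30 were called (background 25.1%), 11 higher in brain and 19 higher in liver. Between heart and liver 27 were called (background 27.8%), 10 higher in heart and 17 higher in liver. The 3 comparisons share their arrays. The median member differed little, by -0.12 for brain minus heart, -0.07 for brain minus liver and 0.04 for heart minus liver. Centring each array on those pan-endothelial markers, which moved the median of all genes by -0.19 for brain minus heart and -0.16 for brain minus liver, gave 36 members called between brain and heart, 7 higher in brain and 29 higher in heart. Under the same centring 29.2% of all genes were called in that pair, 4.79% higher in brain and 24.4% higher in heart. The shift toward heart was thus shared by genes outside the set. The markers used for centring differed by tissue themselves, as 14 of the 18 were called in at least 1 pair (background 37.8%). For brain against heart, 6 markers were called toward brain and 3 toward heart. Calls gained or lost under centring are therefore relative to markers that were not level across tissues.

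By the stricter reading of a tissue against both others, 28 members stood apart (background 25.5%). In liver 14 members were higher than in both other tissues (background 10.4%) and 4 were lower (5.64%). Brain had 6 members higher (4.7%) and 7 lower (2.82%), and heart had 3 higher (3.73%) and 3 lower (3.27%). Some members were placed in both directions, for example highest in liver and lowest in brain. With a log2 difference of at least 1 from both other tissues the counts were 7 higher (2.69%) and 1 lower (1.46%) in liver, 2 higher (1.56%) and 3 lower (0.652%) in brain, and 1 higher (0.908%) and 0 lower (0.311%) in heart. The count of 3 members lower in heart ranged from 2 to 5 when single arrays were left out (2.74% to 3.44% of all genes). It reached 5 without brain replicate 1 and without heart replicate 5, and fell to 2 without heart replicates 1, 3 or 4 and without liver replicates 1, 2 or 3.

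**Figure D1:**
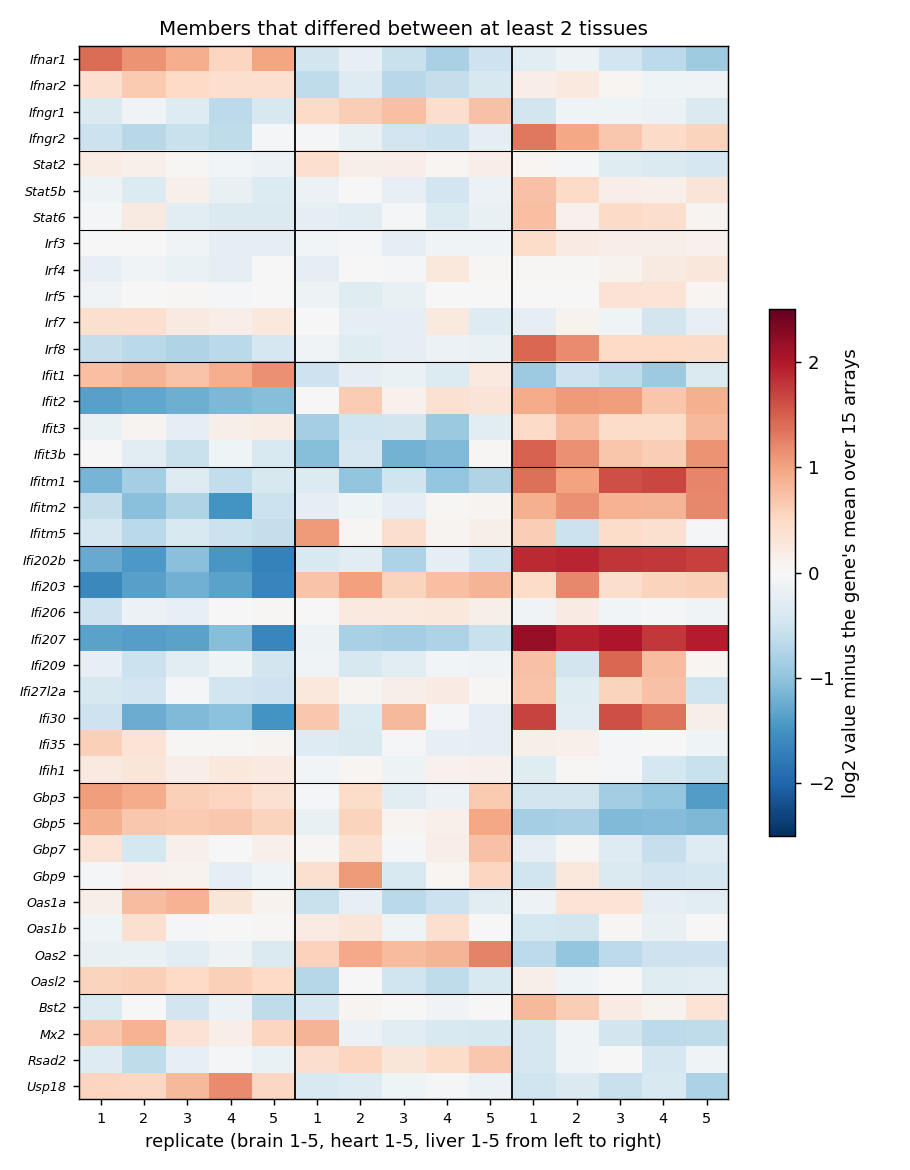
Each row is 1 of the 40 members called between at least 1 pair of tissues, grouped by role, and each column is 1 array. Colour gives the log2 value minus the gene's mean over the 15 arrays. Neighbouring rows of 1 family often run opposite ways, as Ifit1 (red in brain) and Ifit2 (blue in brain) do, and no column is red or blue throughout.

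The promoters were read for the elements through which interferon acts, in windows from 250 bases before to 50 bases after the RefSeq gene start on GRCm38.p6. The table held 56 of the 70 members. ISRE was searched as GAAANNGAAA and GAS as TTCNNNGAA, both on either strand, and the matches of the pair shared bases in 2 members, Bst2 and Ifitm3. An ISRE match was found in 26 of the 56 members (46.4%) and in 3.99% of all 27025 genes of the table, some of which have several windows. A GAS match was found in 14 of the 56 members (25.0%) and in 9.55% of all genes. Counted by window, the ISRE letters were in 26 of 68 member windows and in 3.44% of all 32851 windows, and the GAS letters in 14 of 68 and in 8.30%. By role the ISRE letters were found for 4 of 4 Gbp genes in the table, 8 of 13 Ifi genes, 4 of 5 Ifit genes, 3 of 7 Oas genes, 2 of 7 Ifitm genes, 2 of 6 Stat genes, 1 of 8 Irf genes and 0 of 4 receptor genes, and for both single antiviral genes listed there, Bst2 and Rsad2. A match is a run of letters and does not show that a factor binds there. The stretches printed here were chosen because their genes carry the letters but differed in which tissue was highest or lowest. They run 5′ to 3′ along the gene's strand, lie wholly before the start, and show the ISRE match in capitals, with their coordinates after them.
Ifit1: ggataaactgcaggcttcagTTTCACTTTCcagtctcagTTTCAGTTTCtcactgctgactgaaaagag
Ifit3: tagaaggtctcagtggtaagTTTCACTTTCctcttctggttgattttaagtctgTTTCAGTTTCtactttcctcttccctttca
Ifit3b: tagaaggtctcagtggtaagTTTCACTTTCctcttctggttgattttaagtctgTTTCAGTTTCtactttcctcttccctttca
Ifi203: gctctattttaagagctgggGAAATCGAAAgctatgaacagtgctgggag
Ifi207: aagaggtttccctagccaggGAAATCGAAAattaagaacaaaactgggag
Gbp5: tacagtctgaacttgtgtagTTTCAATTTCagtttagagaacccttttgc
Rsad2: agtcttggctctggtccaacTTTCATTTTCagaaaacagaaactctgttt
Bst2: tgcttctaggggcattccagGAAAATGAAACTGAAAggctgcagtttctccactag
On GRCm38.p6 the Ifit1 stretch is chr19:34640765-34640833 on the plus strand, the Ifit3 stretch is chr19:34583353-34583436 on the plus strand and the Ifit3b stretch is chr19:34607749-34607832 on the plus strand. The Ifi203 stretch is chr1:173942498-173942547 on the minus strand and the Ifi207 stretch is chr1:173741821-173741870 on the minus strand. The Gbp5 stretch is chr3:142496749-142496798 on the plus strand, the Rsad2 stretch is chr12:26456543-26456592 on the minus strand and the Bst2 stretch is chr8:71537567-71537622 on the minus strand. Ifit3 and Ifit3b were identical over all 84 bases shown. Ifit1 holds 2 separate copies, and Bst2 holds 2 copies that overlap. Ifit1 was highest in brain, Ifit3, Ifit3b, Ifi207 and Bst2 were highest in liver, and Rsad2 was highest in heart. Ifi203 was lowest in brain and Gbp5 was lowest in liver, as described with each gene. Gbp3 (lower in liver) and Ifitm2 (lower in brain) also held such a stretch and are not printed. Because the printed genes were picked for their differing orders, those orders are not a result about the letters.

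All 4 receptor chains were called in at least 1 pair (background 37.8%), and each tissue was highest for at least 1 of them. Brain had the highest level of both type I chains, heart of Ifngr1 and liver of Ifngr2. Ifnar1, the chain that completes the type I receptor, read 10.30, 10.04, 9.82, 9.45 and 9.90 on the brain arrays, 8.46, 8.69, 8.35, 8.10 and 8.38 on the heart arrays and 8.63, 8.78, 8.43, 8.25 and 8.01 on the liver arrays. Every brain array lay above every heart and liver array, while the heart and liver arrays overlapped. The brain mean exceeded that of liver, the nearer tissue, by 1.48 (SE 0.16, limma adjusted p = 1.02e-06), or 2.79-fold, and that of heart by 1.51 (SE 0.16, limma adjusted p = 1.69e-06). Ifnar2, the chain that binds type I interferon with high affinity and also exists in soluble form, averaged 10.79 ± 0.10 (brain), 9.78 ± 0.16 (heart) and 10.35 ± 0.16 (liver). No arrays of different tissues overlapped for it. Brain exceeded liver by 0.43 (SE 0.09, limma adjusted p = 0.0018), and liver exceeded heart by 0.58 (SE 0.09, limma adjusted p = 0.000126), which made heart the lowest tissue.

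The interferon gamma chains peaked elsewhere. Ifngr1, which binds the ligand, averaged 9.07 ± 0.20 (brain), 10.04 ± 0.14 (heart) and 9.19 ± 0.16 (liver), and all heart arrays lay above all others. Heart exceeded liver by 0.84 (SE 0.11, limma adjusted p = 7.79e-06) and brain by 0.97 (SE 0.11, limma adjusted p = 2.52e-06). Ifngr2, the signalling chain, read 7.22, 7.07, 7.21, 7.12 and 7.72 on the brain arrays, 7.71, 7.58, 7.27, 7.23 and 7.51 on the heart arrays and 9.07, 8.72, 8.43, 8.24 and 8.32 on the liver arrays. All liver arrays lay above all others, and brain overlapped heart. The liver mean was above that of heart by 1.10 (SE 0.16, limma adjusted p = 3.25e-05), or 2.14-fold, and brain by 1.29 (SE 0.16, limma adjusted p = 4.33e-06). Ifnar2, Il10rb, Ifnar1 and Ifngr2 are consecutive protein-coding genes on chromosome 16 in the RefSeq table of GRCm38.p6. Il10rb, a chain shared by the receptors of interleukin 10 and interferon lambda and no member itself, averaged 9.45 ± 0.18 (brain), 8.23 ± 0.32 (heart) and 8.39 ± 0.28 (liver), with brain above the nearer tissue by 1.06 (limma adjusted p = 2.96e-05). Thus Ifnar2, Il10rb and Ifnar1 were highest in brain, and Ifngr2, next to them, was highest in liver.

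**Figure D2:**
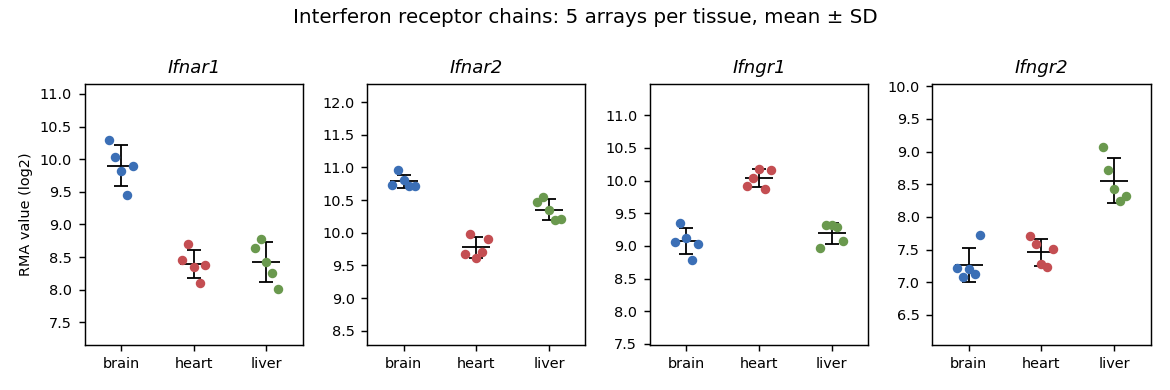
The log2 value of each receptor chain is plotted for the 5 arrays of each tissue, with the mean ± SD as bars. Brain is highest for Ifnar1 (mean 9.90) and Ifnar2 (10.79), heart for Ifngr1 (10.04) and liver for Ifngr2 (8.56).

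Stat factors differed less. Of the 6 measured, 2 were higher in liver than in both other tissues (background 10.4%), 1 was called between 1 pair and 3 were not called. Of all genes 37.8% were called in at least 1 pair. Stat5b, which acts downstream of growth hormone and several cytokines, averaged 6.96 ± 0.19 (brain), 6.93 ± 0.17 (heart) and 7.49 ± 0.25 (liver), and liver exceeded brain by 0.53 (SE 0.12, limma adjusted p = 0.00327). Stat6, the factor of interleukin 4 and interleukin 13 signalling, averaged 8.02 ± 0.25 (brain), 7.97 ± 0.11 (heart) and 8.55 ± 0.29 (liver), and liver exceeded brain by 0.53 (SE 0.13, limma adjusted p = 0.00597). On liver replicates 1 to 5 Stat6 read 8.94, 8.29, 8.67, 8.63 and 8.25, with the 3 arrays of high macrophage markers (replicates 1, 3 and 4) above the other 2. With those 3 arrays left out, an alternative chosen after the data were seen, the liver excess of Stat6 was 0.24 with adjusted p = 0.325, while that of Stat5b kept its call. Stat2, the partner of Irf9 in the type I response, averaged 8.14 ± 0.14 (brain), 8.30 ± 0.14 (heart) and 7.89 ± 0.20 (liver), and heart exceeded liver by 0.41 (SE 0.10, limma adjusted p = 0.00598).

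Stat3, the factor of interleukin 6 and interleukin 10 signalling, read 9.79, 8.57, 8.92, 8.69 and 8.67 on the heart arrays, so that replicate 1 stood 0.86 above the heart mean. Its tissue means were 8.77 ± 0.11 (brain), 8.93 ± 0.50 (heart) and 8.60 ± 0.13 (liver), and the widest difference, heart over liver, was 0.32 (SE 0.17, limma adjusted p = 0.186). Stat5a averaged 6.68 ± 0.08 (brain), 6.80 ± 0.22 (heart) and 6.66 ± 0.08 (liver) and was not called. Stat4, better known in T cells and natural killer cells, averaged 3.29 ± 0.10 (brain), 3.29 ± 0.08 (heart) and 3.43 ± 0.06 (liver), below the median of all genes. Of the 17 receptor kinases and brakes outside the set, 2 were higher (background 10.4%) and 1 lower (5.64%) in liver than in both others. In brain 1 was higher (4.7%) and 1 lower (2.82%), and in heart 1 was higher (3.73%). Jak1, the kinase that all these receptors use, averaged 9.70 ± 0.12 (brain), 10.47 ± 0.18 (heart) and 12.10 ± 0.13 (liver), and liver exceeded the nearer tissue by 1.63 (limma adjusted p = 3.97e-10). Ptpn6, a phosphatase of blood cells, was the other one higher in liver, by 0.33 (limma adjusted p = 0.0206). Socs2, an inhibitor of cytokine signalling, averaged 8.65 ± 0.20 (brain), 9.06 ± 0.19 (heart) and 7.44 ± 0.22 (liver), and liver differed from the nearer tissue by -1.21 (limma adjusted p = 4.18e-07). Il10rb, given above, was the one higher in brain.

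Irf factors are transcription factors that bind interferon genes and ISRE elements. Irf3 and Irf8 were higher in liver than in both other tissues (background 10.4%), and Irf7 was higher in brain (4.7%). Irf4 and Irf5 were called between 1 pair each. Thus 5 of the 8 were called in at least 1 pair (37.8%). Irf8, known for its part in myeloid and dendritic cell development, read 5.93, 5.86, 5.79, 5.86 and 6.11 on the brain arrays, 6.43, 6.22, 6.29, 6.38 and 6.36 on the heart arrays and 7.97, 7.71, 7.02, 7.03 and 7.00 on the liver arrays. All liver arrays lay above all others, and the lowest heart array lay above the highest brain array. Liver exceeded heart by 1.01 (SE 0.16, limma adjusted p = 9.41e-05), or 2.02-fold, and brain by 1.44 (SE 0.16, limma adjusted p = 1.45e-06). Replicate 2, which had low macrophage markers, gave the second highest liver value. Without liver replicates 1, 3 and 4 the excess over the nearer tissue kept its call. Dendritic cell markers (7 genes) averaged 5.82 to 5.86 on the liver arrays and 5.09 to 5.42 on the brain arrays. Their heart arrays lay between, which is the tissue order of Irf8. Of these markers 2 were higher in liver than in both others (background 10.4%) and 2 were lower in brain (2.82%). The part of dendritic cells in the Irf8 values was not tested. Irf3, which is activated by nucleic acid sensors, averaged 7.85 ± 0.11 (brain), 7.86 ± 0.08 (heart) and 8.18 ± 0.14 (liver), and liver exceeded heart by 0.32 (SE 0.08, limma adjusted p = 0.00576). Without liver replicates 1, 3 and 4 this excess was 0.26 with adjusted p = 0.0977.

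Irf7, which amplifies type I interferon production, averaged 6.79 ± 0.11 (brain), 6.38 ± 0.23 (heart) and 6.31 ± 0.20 (liver). Brain exceeded heart by 0.40 (SE 0.11, limma adjusted p = 0.0226) and liver by 0.47 (SE 0.11, limma adjusted p = 0.00449). The first of these calls was lost without brain replicate 1 or 2 or heart replicate 2, 3 or 5 (adjusted p 0.0565 to 0.0644), and also with centring on the pan-endothelial markers (adjusted p = 0.176) and without heart replicates 1 and 3 (adjusted p = 0.0678). The second was lost without liver replicates 1, 3 and 4 (adjusted p = 0.136). Irf5, a factor of Toll-like receptor signalling, averaged 6.34 ± 0.05 (brain), 6.24 ± 0.13 (heart) and 6.51 ± 0.19 (liver), and liver exceeded heart by 0.27 (SE 0.09, limma adjusted p = 0.0327). Its call was lost without heart replicate 1, 2 or 3 or liver replicate 3 or 4 (adjusted p 0.0545 to 0.0981), with that centring (adjusted p = 0.187), without heart replicates 1 and 3 (adjusted p = 0.123) and without liver replicates 1, 3 and 4 (adjusted p = 0.415). Irf4, a lymphoid and macrophage factor, averaged 4.60 ± 0.09 (brain), 4.74 ± 0.18 (heart) and 4.86 ± 0.12 (liver), under the median of all genes, and liver exceeded brain by 0.27 (SE 0.09, limma adjusted p = 0.0378). That call was lost without brain replicate 1, 2, 3 or 4 or liver replicate 3, 4 or 5 (adjusted p 0.0501 to 0.0944), with all probe sets in the fit (adjusted p = 0.0545) and without liver replicates 1, 3 and 4 (adjusted p = 0.154).

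Irf1, Irf2 and Irf9 were not called in the fit of all arrays. Irf1, an early target of interferon gamma, read 9.87, 7.70, 8.38, 7.95 and 8.19 on the heart arrays against 7.86 ± 0.14 in brain and 8.37 ± 0.30 in liver. Another Irf1 probe set averaged 7.86 ± 0.25 (brain), 8.50 ± 0.79 (heart) and 8.01 ± 0.46 (liver), which put liver nearer to brain than to heart. Heart replicate 1 also gave the highest heart values of Stat3 (9.79), Irf9 (8.37) and Mx2 (7.51). On that array the immediate-early genes Fos, Egr1 and Atf3, named after their values were seen, read 9.31, 9.92 and 11.44, and on heart replicate 5 they read 5.92, 7.78 and 6.91. Replicate 1 had the highest cardiomyocyte markers as well, and the part of either in these values was not tested. Irf9, the DNA-binding partner of Stat2, averaged 8.03 ± 0.21 (brain), 7.71 ± 0.39 (heart) and 7.68 ± 0.20 (liver), and brain exceeded liver by 0.35 (SE 0.16, limma adjusted p = 0.131). Without heart replicate 1, with the same difference, Irf9 was called (adjusted p = 0.0306). Irf2, a repressor at many ISRE elements, averaged 9.95 ± 0.20 (brain), 10.07 ± 0.10 (heart) and 10.06 ± 0.17 (liver). Under centring on the pan-endothelial markers Irf1 and Irf2 were called higher in heart than in brain (adjusted p = 0.0489 and 0.0493).

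Ifit proteins bind viral RNA and hold back its translation. Their genes are neighbours on chromosome 19, yet their orders over the tissues differed. Of the 5 measured, 4 were called in at least 1 pair (background 37.8%). Ifit1, which recognises viral RNA with an unmethylated cap, read 7.56, 7.66, 7.52, 7.72 and 7.96 on the brain arrays, 6.29, 6.58, 6.64, 6.47 and 7.06 on the heart arrays and 5.91, 6.29, 6.17, 5.91 and 6.46 on the liver arrays. All brain arrays were above all others. Brain exceeded heart by 1.07 (SE 0.14, limma adjusted p = 1.74e-05), or 2.1-fold, and liver by 1.54 (SE 0.14, limma adjusted p = 9.95e-08). Heart exceeded liver by 0.46 (SE 0.14, limma adjusted p = 0.0179), a call that was lost without liver replicate 1 or 4 (adjusted p 0.0504 to 0.0541) and without liver replicates 1, 3 and 4 (adjusted p = 0.445).

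Ifit2 ran the other way. It read 6.21, 6.26, 6.34, 6.43 and 6.49 on the brain arrays, 7.56, 8.19, 7.67, 7.93 and 7.88 on the heart arrays and 8.49, 8.63, 8.61, 8.25 and 8.45 on the liver arrays. No arrays of different tissues overlapped, with brain lowest and liver highest. Heart exceeded brain by 1.50 (SE 0.11, limma adjusted p = 1.63e-08), or 2.83-fold, and liver exceeded heart by 0.64 (SE 0.11, limma adjusted p = 0.000234). Of these genes brain therefore had the highest Ifit1 and the lowest Ifit2.

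Ifit3 averaged 8.43 ± 0.19 (brain), 7.83 ± 0.28 (heart) and 9.03 ± 0.18 (liver) without overlap between tissues. Liver exceeded brain by 0.60 (SE 0.13, limma adjusted p = 0.0019), and brain exceeded heart by 0.60 (SE 0.13, limma adjusted p = 0.00311). Ifit3b, its near copy with the identical promoter stretch shown above, read 6.66, 6.41, 6.12, 6.57 and 6.29 on the brain arrays, 5.61, 6.25, 5.48, 5.57 and 6.70 on the heart arrays and 8.15, 7.81, 7.36, 7.28 and 7.79 on the liver arrays. All liver arrays lay above all others, and brain and heart overlapped. Liver exceeded brain by 1.26 (SE 0.22, limma adjusted p = 0.000201), or 2.4-fold, and heart by 1.75 (SE 0.22, limma adjusted p = 6.13e-06). Probes of these near copies may bind RNA of either gene, so they are not certain to be separate readings. Ifit1bl2, whose promoter window overlaps that of Ifit1 and holds the same ISRE letters, averaged 3.29 ± 0.17 (brain), 3.43 ± 0.27 (heart) and 3.22 ± 0.10 (liver) and was not called.

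**Figure D3:**
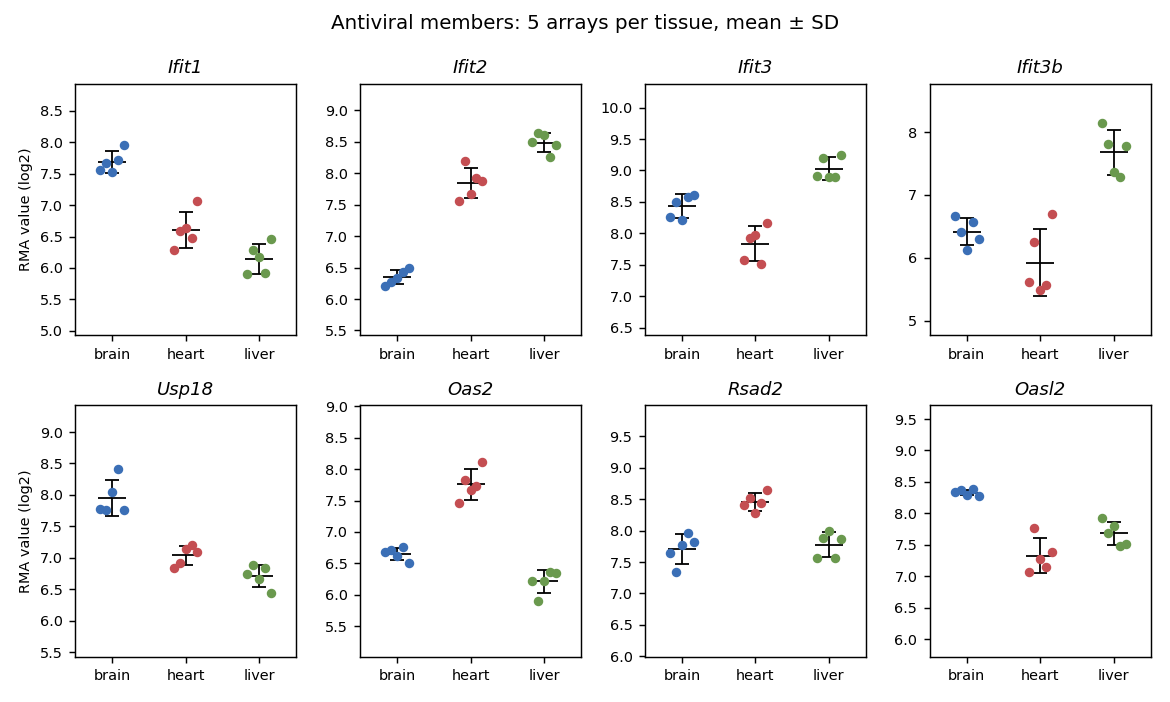
Log2 values of 8 antiviral members are plotted for the 5 arrays of each tissue, with the mean ± SD as bars. Brain is highest for Ifit1, Usp18 and Oasl2, heart for Oas2 and Rsad2, and liver for Ifit2, Ifit3 and Ifit3b.

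Ifitm proteins sit in membranes and block the entry of enveloped viruses. Of the 7 measured, 2 were higher in liver than in both others (background 10.4%) and 2 were lower in brain (2.82%). In at least 1 pair 3 were called (37.8%), and 4 were not called in any pair. Ifitm1 read 7.12, 7.43, 7.96, 7.66 and 7.88 on the brain arrays, 7.95, 7.30, 7.78, 7.31 and 7.53 on the heart arrays and 9.67, 9.29, 9.90, 9.96 and 9.51 on the liver arrays. All liver arrays lay above all others, and brain and heart overlapped. Liver exceeded brain by 2.05 (SE 0.17, limma adjusted p = 3.88e-08), or 4.15-fold, and heart by 2.09 (SE 0.17, limma adjusted p = 4.41e-08). A second Ifitm1 probe set gave 6.39 ± 0.35 in brain, 6.25 ± 0.30 in heart and 8.43 ± 0.34 in liver, the same order.

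Ifitm2 climbed in steps from brain to heart to liver. It read 10.35, 9.90, 10.21, 9.46 and 10.41 on the brain arrays, 10.71, 10.86, 10.71, 10.98 and 11.01 on the heart arrays and 11.84, 12.09, 11.82, 11.80 and 12.15 on the liver arrays. No arrays of different tissues overlapped. The step from heart to liver was 1.09 (SE 0.15, limma adjusted p = 2.15e-05), or 2.13-fold, and that from brain to heart was 0.79 (SE 0.15, limma adjusted p = 0.000994). The other 2 probe sets of Ifitm2 averaged 10.04 and 10.10 in brain, 10.61 and 10.62 in heart, and 11.44 and 11.18 in liver. Ifitm3, the best known restrictor of influenza virus in this family, averaged 12.26 ± 0.10 (brain), 12.35 ± 0.11 (heart) and 12.25 ± 0.17 (liver), with differences of at most 0.11 (95% interval -0.08 to 0.29). Near the top of the array scale, where its values lay, differences can be compressed.

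Ifitm5, known from bone, averaged 6.52 ± 0.13 (brain), 7.39 ± 0.43 (heart) and 7.22 ± 0.47 (liver). Liver exceeded brain by 0.70 (SE 0.21, limma adjusted p = 0.0185) and heart exceeded brain by 0.87 (SE 0.21, limma adjusted p = 0.00691). The first call was lost without liver replicate 1 or 3 (adjusted p 0.0531 to 0.0589). The second was lost without heart replicates 1 and 3, whose values of 8.11 and 7.48 were the highest in heart, with a difference of -0.60 for brain minus heart (adjusted p = 0.0568). On the liver arrays Ifitm5 read 7.66, 6.51, 7.51, 7.44 and 6.99, and without liver replicates 1, 3 and 4 the difference of brain from the nearer tissue was -0.23 with adjusted p = 0.62. Ifitm6, Ifitm7 and Ifitm10 were not called, and their largest difference was 0.31 (Ifitm10, limma adjusted p = 0.0792).

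Genes of the Ifi200 cluster on chromosome 1 encode proteins with a DNA-binding HIN domain, several of which act in DNA sensing and cell cycle control. They held the largest differences of all members. Ifi207 read 4.18, 4.13, 4.17, 4.45 and 3.88 on the brain arrays, 5.38, 4.69, 4.67, 4.73 and 4.96 on the heart arrays and 7.69, 7.44, 7.53, 7.28 and 7.47 on the liver arrays. Its tissues did not overlap, with liver highest and brain lowest. Liver exceeded heart by 2.59 (SE 0.13, limma adjusted p = 6.65e-11), or 6.04-fold, and brain by 3.32 (SE 0.13, limma adjusted p = 1.3e-12), or 9.97-fold. Heart exceeded brain by 0.72 (SE 0.13, limma adjusted p = 0.000727).

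Ifi202b, linked to autoimmunity in some mouse strains, read 4.15, 3.97, 4.35, 3.95 and 3.72 on the brain arrays, 5.03, 5.12, 4.64, 5.16 and 4.90 on the heart arrays and 7.28, 7.31, 7.19, 7.17 and 7.11 on the liver arrays. The order was that of Ifi207, again without overlap. Its liver mean was above the heart mean by 2.24 (SE 0.11, limma adjusted p = 6.79e-11), or 4.73-fold, and heart exceeded brain by 0.94 (SE 0.11, limma adjusted p = 9.36e-06). In brain and heart the means of both genes were under the median of all genes, the lower part of the array scale.

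Ifi203 set brain apart from both other tissues. It read 8.22, 8.48, 8.63, 8.50 and 8.18 on the brain arrays, 10.54, 10.87, 10.40, 10.59 and 10.68 on the heart arrays and 10.30, 11.04, 10.28, 10.38 and 10.42 on the liver arrays. Every brain array lay below every other array, and heart and liver overlapped. The heart mean exceeded that of brain by 2.21 (SE 0.14, limma adjusted p = 1.59e-09), or 4.64-fold, and the liver mean did so by 2.08 (SE 0.14, limma adjusted p = 1.51e-09), or 4.24-fold. The ISRE letters in the promoters of Ifi203 and Ifi207, shown above, were the same 10 bases, GAAATCGAAA, at -35 in the first and -41 in the second, counted from -1 at the base before the start.

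The other 6 genes of this cluster read under the median of all genes in every tissue. Ifi206 averaged 3.56 ± 0.22 (brain), 3.91 ± 0.12 (heart) and 3.72 ± 0.13 (liver), and heart exceeded brain by 0.35 (SE 0.10, limma adjusted p = 0.0264), a call lost without brain replicate 1 or 3 or heart replicate 2, 3 or 4 (adjusted p 0.0564 to 0.0703). Ifi209 read 4.02, 2.83, 4.73, 4.06 and 3.33 on the liver arrays, against 2.97 ± 0.18 in brain and 3.10 ± 0.15 in heart. The excess of liver over heart was 0.69 (SE 0.24, limma adjusted p = 0.0431). This call was lost without brain replicate 1, 3 or 5, heart replicate 1, 2, 3, 4 or 5 or liver replicate 1, 3 or 4 (adjusted p 0.0501 to 0.116), and the excess was 0.46 without liver replicate 3. Without liver replicates 1, 3 and 4 it was -0.02 with adjusted p = 0.956. The call was also lost with all probe sets in the fit, with centring, with trend and robust, and without heart replicates 1 and 3 (adjusted p 0.0673 to 0.11). Ifi205, Ifi208, Ifi213 and Ifi214 were not called. Probes of these close relatives may bind each other's RNA.

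Of the Ifi genes outside that cluster, Ifi30, a lysosomal enzyme that reduces disulphide bonds of antigens, varied most. It read 6.54, 5.83, 5.97, 6.05 and 5.57 on the brain arrays, 7.73, 6.72, 7.87, 7.02 and 6.82 on the heart arrays and 8.75, 6.81, 8.68, 8.42 and 7.21 on the liver arrays. All brain arrays lay below all others, and heart and liver overlapped. Heart exceeded brain by 1.24 (SE 0.35, limma adjusted p = 0.0193), or 2.37-fold, and liver exceeded brain by 1.98 (SE 0.35, limma adjusted p = 0.000259). The first of these was lost without brain replicate 5 or heart replicate 3 (adjusted p 0.0524 to 0.0575). Without liver replicates 1, 3 and 4 the difference of brain from the nearer tissue was -1.02 and kept its call (adjusted p = 0.0346). In heart the highest Ifi30 values were on replicates 1 and 3, which also had the highest cardiomyocyte markers, and without those 2 arrays the call was lost (adjusted p = 0.163).

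Ifi27l2a, a small mitochondrial protein gene, averaged 6.10 ± 0.21 (brain), 6.63 ± 0.09 (heart) and 6.73 ± 0.59 (liver) and read 7.19, 6.18, 7.05, 7.21 and 6.00 on the liver arrays. Liver exceeded brain by 0.62 (SE 0.20, limma adjusted p = 0.0306), a call lost without brain replicate 1, 2, 4 or 5 or liver replicate 1, 3 or 4 (adjusted p 0.0536 to 0.0925) and with all probe sets in the fit (adjusted p = 0.0593). The difference of brain minus liver was 0.01 with adjusted p = 0.971 without liver replicates 1, 3 and 4. For Ifi30, Ifi27l2a, Ifi209 and Ifitm5 liver replicates 1, 3 and 4 lay above replicates 2 and 5, as they did for the macrophage markers. Other members split in the same way, among them Stat6, Gbp8, Gbp2b and Ifitm6. Gbp8 read 6.95, 6.30, 7.51, 6.77 and 5.83 on liver replicates 1 to 5. The Kupffer cell receptor Vsig4 spanned 5.29 to 10.70 on those arrays and Clec4f 6.43 to 9.70. The part of such cells in the values of these genes was not tested. For Ifi207, Irf8 and Ifngr2 the replicates were not ordered in this way, and each kept its call in liver without replicates 1, 3 and 4. Ifitm1 was higher on replicates 1, 3 and 4, and its excess without them was 1.79 (adjusted p = 3.9e-05).

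**Figure D4:**
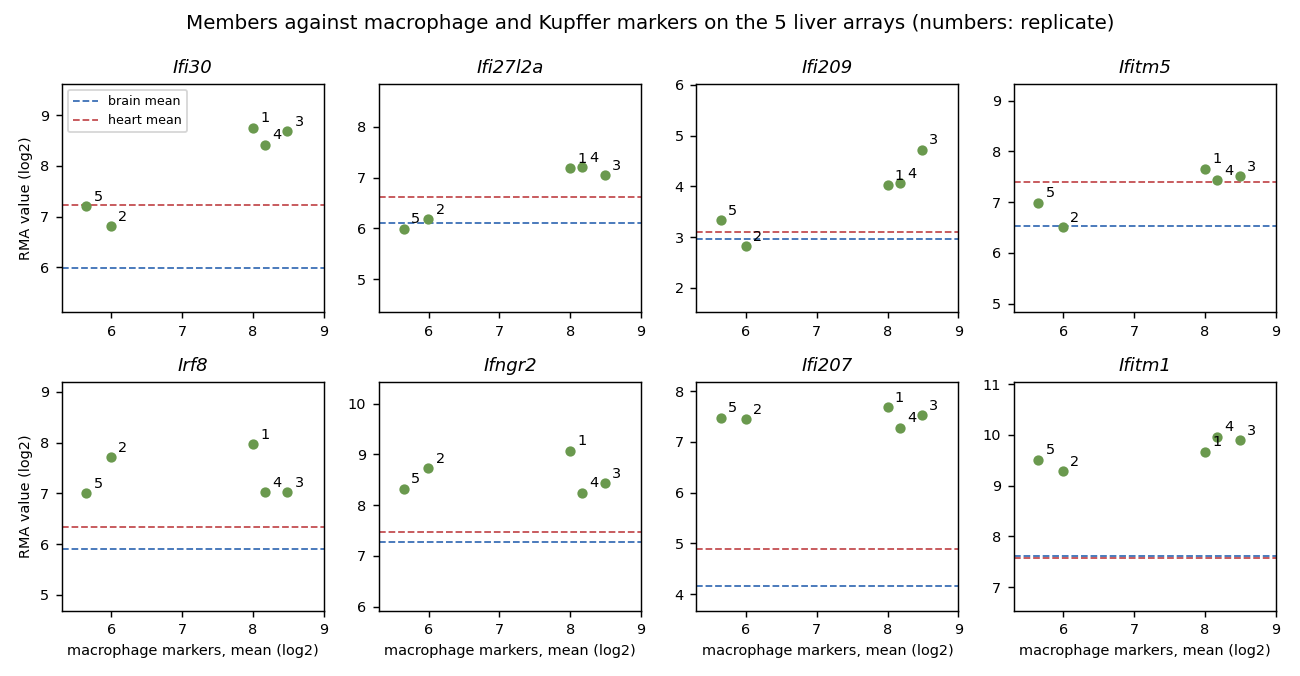
Each panel plots the log2 value of 1 member on the 5 liver arrays against the mean log2 value of 13 macrophage and Kupffer markers on the same array, with replicate numbers beside the points and dashed lines at the brain and heart means. Ifi30, Ifi27l2a, Ifi209 and Ifitm5 are higher on replicates 1, 3 and 4 and fall to or near the heart or brain mean on replicates 2 and 5, while Irf8, Ifngr2, Ifi207 and Ifitm1 lie above both dashed lines on all 5 arrays.

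Ifih1, the cytosolic sensor of long double-stranded RNA also called Mda5, averaged 8.81 ± 0.05 (brain), 8.59 ± 0.11 (heart) and 8.31 ± 0.26 (liver), and brain exceeded liver by 0.51 (SE 0.10, limma adjusted p = 0.0011). Ifi35 averaged 7.80 ± 0.25 (brain), 7.36 ± 0.12 (heart) and 7.61 ± 0.11 (liver), and brain exceeded heart by 0.44 (SE 0.11, limma adjusted p = 0.0076). Centring on the pan-endothelial markers ended the Ifi35 call, at 0.25 (adjusted p = 0.0655). Ifi27 averaged 10.01 ± 0.21 (brain), 9.85 ± 0.12 (heart) and 10.08 ± 0.18 (liver) and was not called. Ifi27l2b and Ifi44l were not called either, the latter at 4.16 ± 0.08 or similar levels in all 3 tissues.

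Guanylate-binding proteins are large GTPases that attack the vacuoles of intracellular bacteria and parasites. Interferon gamma is their classic inducer. Of the 8 measured, Gbp3 and Gbp5 were lower in liver than in both others (background 5.64%). Gbp7 and Gbp9 were called between heart and liver, and 4 were not called. Of all genes 37.8% were called in at least 1 pair. Gbp5, which also promotes inflammasome assembly, read 8.16, 7.94, 7.92, 7.94 and 7.83 on the brain arrays, 7.09, 7.82, 7.33, 7.39 and 8.24 on the heart arrays and 6.42, 6.46, 6.16, 6.19 and 6.15 on the liver arrays. All liver arrays lay below all others, and brain and heart overlapped. Heart exceeded liver by 1.30 (SE 0.16, limma adjusted p = 7.79e-06), or 2.45-fold, and brain exceeded liver by 1.68 (SE 0.16, limma adjusted p = 2.62e-07). Gbp3, its neighbour but one on chromosome 3, averaged 8.04 ± 0.28 (brain), 7.47 ± 0.40 (heart) and 6.51 ± 0.40 (liver). Heart exceeded liver by 0.96 (SE 0.20, limma adjusted p = 0.00147) and brain exceeded liver by 1.53 (SE 0.20, limma adjusted p = 1.2e-05).

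Gbp7, which lies between Gbp5 and Gbp3, averaged 9.42 ± 0.29 (brain), 9.64 ± 0.31 (heart) and 9.10 ± 0.22 (liver), and heart exceeded liver by 0.54 (SE 0.16, limma adjusted p = 0.0152). Gbp9, on chromosome 5, averaged 9.18 ± 0.14 (brain), 9.54 ± 0.54 (heart) and 8.90 ± 0.32 (liver), and heart exceeded liver by 0.64 (SE 0.21, limma adjusted p = 0.0273). The Gbp9 call was lost without heart replicate 1, 2 or 5 or liver replicate 1, 3, 4 or 5 (adjusted p 0.0514 to 0.0743) and with all probe sets in the fit (adjusted p = 0.0533). Without liver replicates 1, 3 and 4 the heart excess of Gbp7 was 0.40 with adjusted p = 0.264 and that of Gbp9 was 0.43 with adjusted p = 0.409. Gbp4 averaged 9.22 ± 0.29 (brain), 9.68 ± 0.37 (heart) and 9.20 ± 0.25 (liver), with heart over liver by 0.47 (SE 0.17, limma adjusted p = 0.0525). This difference was called under 8 alternatives, among them the replicate block (adjusted p = 0.0297), centring (adjusted p = 0.0145) and leaving out heart replicate 3 (adjusted p = 0.0146). Gbp8 averaged 5.78 ± 0.18 (brain), 6.24 ± 0.90 (heart) and 6.67 ± 0.64 (liver), Gbp2b and Gbp11 lay under 6 in all tissues, and none of these 3 was called. Gbp3 and Gbp5 were thus lowest in liver, where Ifngr2 was highest, while Ifngr1 was highest in heart. A link between the level of either chain and the Gbp genes was not tested.

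Within heart the Gbp genes also varied from array to array. All 8 lay above their heart mean on replicate 5, by 0.53 on average, and 7 of 8 did so on replicate 2, by 0.22. None lay above it on replicate 3 (-0.40 on average), and 1 of 8 did on replicate 1 (-0.24). In liver 0 of 8 lay above the liver mean on replicate 5 (-0.33). On heart replicate 5 the immediate-early genes given above and the cardiomyocyte markers were lowest of the heart arrays. Replicate 4 had cardiomyocyte markers almost as low (8.17 against 8.15), and 1 of 8 Gbp genes lay above the heart mean on it (-0.11 on average). The part of cardiomyocytes or of the immediate-early genes in the Gbp values was not tested. The genes are relatives with similar sequence, so their probes may bind some of the same RNA.

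**Figure D5:**
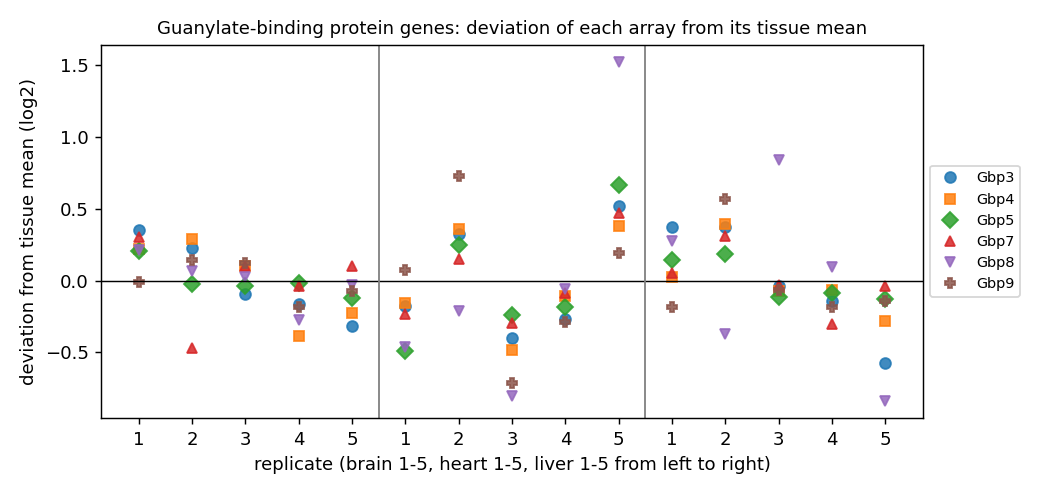
The deviation of each array from its tissue mean is plotted in log2 units for 6 guanylate-binding protein genes over the 15 arrays. On heart replicate 5 all 6 lie above 0 and on heart replicate 3 all 6 lie below it.

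Oas proteins that are active enzymes sense double-stranded RNA and make the oligoadenylate that activates RNase L. Of the 11 measured, 4 were called in at least 1 pair (background 37.8%) and 7 were not called in any. Oas2 read 6.69, 6.71, 6.62, 6.76 and 6.50 on the brain arrays, 7.45, 7.82, 7.67, 7.73 and 8.12 on the heart arrays and 6.22, 5.91, 6.23, 6.36 and 6.35 on the liver arrays. No tissues overlapped, with heart highest and liver lowest. Heart exceeded brain by 1.10 (SE 0.11, limma adjusted p = 1.1e-06), or 2.15-fold, and brain exceeded liver by 0.44 (SE 0.11, limma adjusted p = 0.00671). Centring on the pan-endothelial markers ended the second call (adjusted p = 0.115). The highest Oas2 value came from heart replicate 5, the array with the lowest cardiomyocyte markers (8.15). Heart replicate 4, with these markers at 8.17, read 7.73 for Oas2, under the heart mean of 7.76.

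Oasl2, an Oas relative with a ubiquitin-like tail, averaged 8.33 ± 0.05 (brain), 7.33 ± 0.27 (heart) and 7.68 ± 0.19 (liver). Brain exceeded liver by 0.65 (SE 0.12, limma adjusted p = 0.000336) and heart by 1.00 (SE 0.12, limma adjusted p = 5.33e-06). Liver exceeded heart by 0.35 (SE 0.12, limma adjusted p = 0.0317), a call lost without heart replicate 1, 3 or 4 or liver replicate 1, 2 or 3 (adjusted p 0.0506 to 0.0914), and under 4 other alternatives (adjusted p = 0.0531 with all probe sets to 0.289 without liver replicates 1, 3 and 4). Oas1a averaged 7.71 ± 0.36 (brain), 6.82 ± 0.21 (heart) and 7.28 ± 0.31 (liver), and brain exceeded heart by 0.89 (SE 0.17, limma adjusted p = 0.001). Oas1b averaged 6.25 ± 0.20 (brain), 6.36 ± 0.21 (heart) and 5.98 ± 0.23 (liver), and heart exceeded liver by 0.37 (SE 0.13, limma adjusted p = 0.0352). The Oas1b call was lost without heart replicate 1, 2 or 4 or liver replicate 1, 2 or 4 (adjusted p 0.0543 to 0.0972), with the replicate block (adjusted p = 0.0544), with all probe sets (adjusted p = 0.0599) and without liver replicates 1, 3 and 4 (adjusted p = 0.141). Oas1c, Oas1d, Oas1e, Oas1f, Oas1h, Oas3 and Oasl1 were not called, with differences of at most 0.27 (Oas1c, limma adjusted p = 0.123). Oas1d, Oas1e, Oas1f, Oas1h and Oas3 read under the median of all genes in every tissue. Oas genes lie side by side on chromosome 5 and resemble each other, so the separate readings of Oas1 copies are uncertain.

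The single antiviral genes split among the tissues. Usp18, which removes the interferon-induced modifier from proteins and also blocks Ifnar2 signalling, averaged 7.95 ± 0.28 (brain), 7.04 ± 0.15 (heart) and 6.71 ± 0.18 (liver). Its brain arrays lay above all others, and brain exceeded heart by 0.91 (SE 0.13, limma adjusted p = 4.04e-05), or 1.88-fold, and liver by 1.23 (SE 0.13, limma adjusted p = 5.13e-07). Brain was thus highest for both type I receptor chains and for this brake on them. Rsad2, or viperin, which makes a chain-terminating nucleotide, averaged 7.71 ± 0.23 (brain), 8.46 ± 0.14 (heart) and 7.77 ± 0.20 (liver). Its heart arrays lay above all others, and heart exceeded liver by 0.68 (SE 0.12, limma adjusted p = 0.000235) and brain by 0.75 (SE 0.12, limma adjusted p = 0.000154). As for Oas2, its highest value was on heart replicate 5 (8.65), while heart replicate 4 read 8.43, under the heart mean.

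Bst2, or tetherin, which holds budding virus at the cell surface, averaged 6.75 ± 0.26 (brain), 6.98 ± 0.19 (heart) and 7.48 ± 0.30 (liver). Bst2 in liver exceeded heart by 0.50 (SE 0.15, limma adjusted p = 0.015) and brain by 0.73 (SE 0.15, limma adjusted p = 0.000941). Without heart replicates 1 and 3 the excess over the nearer tissue was 0.42 with adjusted p = 0.0811. Mx2, a GTPase that blocks virus replication, averaged 7.19 ± 0.27 (brain), 6.59 ± 0.52 (heart) and 6.22 ± 0.23 (liver), and brain exceeded liver by 0.97 (SE 0.20, limma adjusted p = 0.0013). Without liver replicates 1, 3 and 4 that difference was 0.89 with adjusted p = 0.0516. Mx1, its nuclear relative, averaged 3.58 ± 0.08 (brain), 3.52 ± 0.12 (heart) and 3.52 ± 0.07 (liver) and was not called.

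In all, 30 members were called in no pair in the fit of all arrays, where 37.8% of all genes were called in at least 1. Their differences ran from 0.00 to 0.89, the widest being Gbp8 in liver over brain. Among them 17 read under the median of all genes in every tissue. Of the 20 members with such low levels in every tissue, 3 were called in any pair (Ifi206, Ifi209 and Irf4), and each of these calls was lost on leaving out single arrays, as given above. Among the 30, 14 were called in their widest pair under at least 1 alternative, 10 of them with centring and 8 with others.

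Genes of the pathway outside the set were read from lists. Interferon genes themselves were mostly low: of 16 measured, 6 reached the median of all genes in some tissue. Of the 16, 1 was higher in brain (background 4.7%). This was Ifnk, at 5.11 ± 0.18 (brain), 4.65 ± 0.13 (heart) and 4.47 ± 0.15 (liver), by 0.46 (limma adjusted p = 0.00284) over the nearer tissue. Nothing in these values shows which interferon the cells had met. Of 17 nucleic acid sensing genes, 4 were higher in liver (background 10.4%) and 1 lower (5.64%), 2 were higher in brain (4.7%) and 1 was higher in heart (3.73%). Aim2, a cytosolic DNA sensor of the same HIN family as the Ifi200 genes, was higher in liver by 0.53 (limma adjusted p = 0.000606), as were Dhx58 (0.43 (limma adjusted p = 0.0288)), Mavs (0.41 (limma adjusted p = 0.00138)) and Tbk1. Eif2ak2, the RNA-activated kinase also called PKR, was higher in brain by 0.36 (limma adjusted p = 0.0397), as was Samhd1 by 0.27 (limma adjusted p = 0.0469). Trim25, a ubiquitin ligase of the Rig-I pathway, averaged 9.42 ± 0.15 (brain), 9.83 ± 0.30 (heart) and 8.81 ± 0.14 (liver), highest in heart and lowest in liver.

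Immunity-related GTPases, which act beside the Gbp proteins, were represented by 4 genes. Gm4951 averaged 6.19 ± 0.25 (brain), 6.31 ± 0.46 (heart) and 9.92 ± 0.20 (liver), and liver exceeded the nearer tissue by 3.61 (limma adjusted p = 5.92e-11), a larger difference than any member of the set showed against its nearer tissue. Iigp1 averaged 8.29 ± 0.08 (brain), 9.53 ± 0.75 (heart) and 9.41 ± 0.57 (liver), and brain differed from the nearer tissue by -1.12 (limma adjusted p = 0.00886). Of 15 interferon-gamma antigen and chemokine genes, 3 were higher in liver (background 10.4%), 2 higher and 1 lower in heart (3.73% and 3.27%), and 3 lower in brain (2.82%). The T cell attractants Cxcl9, at 5.18 ± 0.37 (brain), 6.34 ± 0.55 (heart) and 9.14 ± 0.64 (liver), and Cxcl10, at 6.47 ± 0.23 (brain), 6.21 ± 0.23 (heart) and 8.27 ± 1.13 (liver), were higher in liver by 2.81 (limma adjusted p = 7.73e-07) and 1.80 (limma adjusted p = 0.00116). Cd74, the invariant chain of class II presentation, was higher in liver by 1.89 (limma adjusted p = 0.00203). Liver replicates 1, 3 and 4 had high macrophage markers, and the part of such cells in the liver values of Cxcl9, Cxcl10 and Cd74 was not tested. Ido1, which breaks down tryptophan, and Nos2, the inducible nitric oxide synthase, were higher in heart by 0.89 (limma adjusted p = 2.99e-05) and 0.93 (limma adjusted p = 5.74e-05). Cxcl11 was lower in heart, with a difference from the nearer tissue of -0.59 (limma adjusted p = 0.0139). Psmb8 and Psmb9, subunits of the immunoproteasome, were lower in brain, with differences of -0.40 (limma adjusted p = 0.012) and -0.50 (limma adjusted p = 0.046).

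Of 32 other interferon-stimulated genes, 5 were higher and 3 lower in liver (background 10.4% and 5.64%). In heart 5 were higher and 1 lower (3.73% and 3.27%), and in brain 3 were lower and 0 higher (2.82% and 4.7%). Lgals3bp, a secreted galectin ligand, was higher in liver by 1.39 (limma adjusted p = 4.04e-05), as were Epsti1 (0.52 (limma adjusted p = 0.0214)) and Trim30a (0.45 (limma adjusted p = 0.000355)). The part of macrophages in these liver values was not tested either. Cd274, the checkpoint ligand PD-L1, averaged 6.72 ± 0.10 (brain), 7.97 ± 0.35 (heart) and 7.00 ± 0.15 (liver) and was higher in heart by 0.97 (limma adjusted p = 2.19e-05), with Phf11d (0.69 (limma adjusted p = 0.00306)) and Slfn5 (0.58 (limma adjusted p = 0.000366)). Parp14, a factor of Stat6 signalling, was lower in brain, with a difference of -0.63 (limma adjusted p = 7.92e-06). As in the set itself, single genes known as interferon targets were highest in different tissues. Whether the counts of these lists, or of the families in the set, depart from the shares over all genes was not tested.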

How the data were processed

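The deposited values are log2 intensities made by the authors with RMA in Affymetrix Power Tools, per the submitters' processing notes. Their versions and the genome build: not given in the sources used here. The file held 35556 probe sets on 15 arrays, 5 a tissue, from 5 ng of amplified RNA each. GEO's annotation listed 23410 probe sets, 21789 with 1 gene symbol and 1621 with several. For each gene the probe set with the highest mean was kept, giving 19938 genes. The 70 members had 74 probe sets (Ifitm1, Ifitm2 and Irf1 had more than 1), and 6 naming a member with another gene were left out. Isg15, on such a probe set, is not analysed here.

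In R 4.3.3, limma 3.58.1 fitted a model of 3 tissue means to the 15 arrays (lmFit, then eBayes), with 12 residual and 4.75 prior degrees of freedom, and p-values were adjusted by Benjamini-Hochberg over all genes within each pairwise contrast (threshold 0.05). The fit was tested on simulated data. Tables and figures were made in Python 3.11.15 with pandas 2.3.3 and matplotlib 3.10.9.

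The members and lists were chosen with earlier results of these data known. Named were all receptor, Stat and Irf members, and, of other members past the threshold against both other tissues, up to 12 a tissue by difference from the nearer tissue, with array values where it was at least 1. Of each pathway list up to 3 genes a tissue were named by the same measure, and a few more after their values were seen. Pathway lists were interferon genes, receptor kinases and brakes, nucleic acid sensing, immunity-related GTPases, other interferon-stimulated genes and interferon-gamma antigen and chemokine genes. Alternatives were a replicate block, centring on pan-endothelial genes, a filter on low values, the mean of probe sets, eBayes with trend and robust, all probe sets, leaving out each array, and, added after seeing the data, leaving out heart replicates 1 and 3 or liver replicates 1, 3 and 4. Promoters are RefSeq's of GRCm38.p6, where 56 of 70 members matched by symbol. RMA compresses large and low differences, the scanner files were not used here, and the number of arrays limits the precision.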

Additional observations from a re-analysis of the deposited data

Results flagged for a closer look

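In 111 groups of 5 arrays (each named member in each tissue), 5 held an array whose gap to the nearest other made up more of the group's range than Dixon's 95% limit for 5 values. Chance flags about 1 in 20 such groups, so about as many were to be met. Ifi203 read 11.04 on liver replicate 2, against 10.28 to 10.42 on the other 4 liver arrays. Ifngr2 read 7.72 on brain replicate 5, against 7.07 to 7.22 on the others. Irf3 read 7.72 on heart replicate 3, against 7.88 to 7.91, and 8.43 on liver replicate 1, against 8.06 to 8.16. Stat3 read 9.79 on heart replicate 1, against 8.57 to 8.92 on the other heart arrays. No explanation of these values was tested.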

How the results depend on the processing

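Over 23 alternatives to the 9 counts of members, 202 of 207 values stayed within 1.5 times the count given in the report. The 5 others were 36 members called between brain and heart, 11 lower in brain and 7 higher in heart under centring on the pan-endothelial markers (of all genes 29.2%, 8.38% and 5.69%, against 15.4%, 2.82% and 3.73% without it), and 5 lower in heart without brain replicate 1 and without heart replicate 5. Leaving out single arrays gave 18 to 23 members called between brain and heart, 28 to 32 between brain and liver and 22 to 29 between heart and liver. Of all genes 13.4% to 15.7%, 22.5% to 25.9% and 24.1% to 28.3% were called in these pairs. The counts of members higher and lower than in both others ranged from 5 to 8 and 6 to 8 in brain, 3 to 4 and 2 to 5 in heart, and 13 to 16 and 3 to 5 in liver. The shares over all genes ranged from 4.3% to 4.7% and 2.5% to 2.83% in brain, 3.29% to 3.66% and 2.74% to 3.44% in heart, and 8.81% to 10.7% and 5.08% to 5.55% in liver. The replicate block gave 23, 32 and 30 members called in the same 3 pairs (16.9%, 26.5% and 29.8% of all genes). Arrays sharing a number had correlations of deviations of -0.00 to 0.20 (median 0.095, over 0.1 in 6 of 15 pairs), against a median of -0.024 and 2 of 60 pairs for different numbers. Arrays of 1 number were thus the more alike. The main fit did not pair the samples by number, and only the replicate block took the numbers into account. Whether arrays of 1 number were prepared together was not tested. Without liver replicates 1, 3 and 4, which left 2 liver arrays, 11 of the 14 members higher in liver kept that call (all but Ifi209, Irf3 and Stat6). Of all genes 6.08% were then higher in liver, against 10.4% with all arrays. Ifi209 turned to -0.024 for liver minus the nearer tissue, and Ifi27l2a turned to 0.014 for brain minus liver. Of 1124 values of called differences over all alternatives, these 2 changed sign and 1024 kept sign and call. Of 673 values of differences not called, 7 changed sign, in Gbp2b, Ifi214, Ifitm3, Ifitm6 and Mx1 and without a call, and 28 gained a call. Array signal limits what is known of the 20 members under the median of all genes in every tissue.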
